A study of Mus musculus with 2 samples.

Results

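Cell cycle genes were followed as 44 genes of the 32285 in the deposited matrices, taken by symbol and grouped by the phase in which their products act. The groups were 5 G1 cyclins and kinases, 10 replication genes, 27 mitosis genes, and the broadly expressed Stmn1 and Hmgb2. The sections came from kidneys of C57BL/6 mice whose ureter had been tied off on one side (unilateral ureteral obstruction, UUO), taken 7 days after surgery and profiled on 10x Genomics Visium slides, where each barcoded spot captures the polyadenylated RNA of the several cells above it. One section came from a mouse given SH045 (larixyl N-methylcarbamate, an inhibitor of the cation channel TRPC6) and one from a mouse given vehicle, called the SH045 kidney and the Vehicle kidney below. Per the labels both kidneys had the surgery, and no kidney labelled as unoperated was analysed here. The dose and schedule of SH045 are not given in the sources used. With 1 section per group no test between groups was possible, no p-value is given, and every interval covers counting error only, not variation between mice.

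The SH045 kidney held 22388623 UMIs (distinct captured RNA molecules) in 790 spots, against 4327613 UMIs in 676 spots of the section labelled Vehicle. The median spot held 27733 UMIs in the SH045 kidney and 4932.5 in the Vehicle kidney, and 335 barcodes of the common slide grid occurred in both. Mitochondrially encoded genes took 4.24% of UMIs in the SH045 kidney and 10.4% in the Vehicle kidney. Podocyte markers summed to 211 CPM (UMIs per 1000000 of the section) in each section, although 2 of the 6 were at least 1.5-fold higher in the SH045 kidney and 3 lower. The section labelled Vehicle stood apart from its surgical label: the tubular injury gene Havcr1 (KIM-1) was at 992 CPM in the SH045 kidney and at 1.62 CPM, from 7 UMIs, in the Vehicle kidney. Lcn2, the injury marker lipocalin 2, was at 1233 CPM in the SH045 kidney and at 2.08 CPM in the Vehicle kidney. No other Vehicle section was analysed here, so every comparison below rests on it. The files do not settle whether it came from an obstructed kidney, so in every fold below a difference in treatment and a difference in obstruction cannot be told apart. Among the 10463 genes that reached 10 CPM in either kidney, the median log2 ratio (log2 of CPM + 1, SH045 minus Vehicle) was 0.63, and 75.7% of genes lay above 0.

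As background, a cell enters the cycle when D-type cyclins with CDK4 or CDK6 phosphorylate the retinoblastoma protein, which frees E2F factors to switch on the genes of DNA replication. The MCM helicase then unwinds the DNA, PCNA holds the polymerases on it, and ribonucleotide reductase and thymidylate synthase supply nucleotides. Later, CDK1 with cyclins A and B drives mitosis. In resting cells many mitotic genes are held silent by the DREAM complex, which can sit on a promoter element called the CHR. The tubules of a healthy adult kidney divide little, and cells of the tubules and of the interstitium enter the cycle after obstruction.

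The promoters of the members show the split between the phases, and stretches of 7 of them are printed to make the elements visible. Windows reaching 250 bases before to 50 after the transcript start were in the RefSeq promoter table (build GRCm38.p6, the same assembly as mm10) for 36 of the 44 members. Searched on both strands were the CHR as TTTGAA, the E2F site as TTTCCCGC, TTTGGCGC, TTTCGCGC or TTTGCCGC, and the CCAAT box as CCAAT. The E2F words can overlap one another, and none of the 3 elements contains another. Each line below is the 160 bases before the start, read 5′ to 3′ along the gene, with CHR matches in capitals for the 4 mitosis genes and for Cks2, and E2F matches in capitals for the 2 MCM genes. A capital TTCAAA is TTTGAA read on the other strand, and overlapping E2F matches run together.
Lines follow for Cdc20 at chr4:118437344-118437503 on the minus strand, Cdk1 at chr10:69352913-69353072 on the minus strand, Ube2c at chr2:164769769-164769928 on the plus strand, and Top2a at chr11:99024190-99024349 on the minus strand. The MCM genes are Mcm5 at chr8:75109349-75109508 on the plus strand and Mcm6 at chr1:128359706-128359865 on the minus strand, and Cks2 lies at chr13:51645072-51645231 on the plus strand.
Cdc20: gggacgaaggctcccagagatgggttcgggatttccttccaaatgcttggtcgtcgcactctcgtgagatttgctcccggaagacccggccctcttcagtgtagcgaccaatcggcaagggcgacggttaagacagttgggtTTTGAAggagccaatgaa
Cdk1: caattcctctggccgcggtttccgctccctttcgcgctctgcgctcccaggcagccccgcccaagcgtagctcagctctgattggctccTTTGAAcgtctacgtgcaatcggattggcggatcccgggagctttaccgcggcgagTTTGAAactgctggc
Ube2c: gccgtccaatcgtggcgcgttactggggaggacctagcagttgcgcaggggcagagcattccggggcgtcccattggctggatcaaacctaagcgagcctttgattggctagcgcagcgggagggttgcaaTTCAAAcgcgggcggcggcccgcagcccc
Top2a: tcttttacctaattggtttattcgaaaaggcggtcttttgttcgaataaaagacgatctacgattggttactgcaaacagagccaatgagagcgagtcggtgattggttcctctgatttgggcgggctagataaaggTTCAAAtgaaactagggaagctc
Mcm5: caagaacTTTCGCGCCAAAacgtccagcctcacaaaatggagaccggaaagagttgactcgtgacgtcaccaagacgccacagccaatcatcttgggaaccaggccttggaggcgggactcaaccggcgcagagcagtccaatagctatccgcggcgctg
Mcm6: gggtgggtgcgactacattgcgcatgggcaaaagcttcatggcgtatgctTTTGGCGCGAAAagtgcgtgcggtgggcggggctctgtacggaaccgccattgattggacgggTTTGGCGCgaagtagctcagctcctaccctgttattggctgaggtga
Cks2: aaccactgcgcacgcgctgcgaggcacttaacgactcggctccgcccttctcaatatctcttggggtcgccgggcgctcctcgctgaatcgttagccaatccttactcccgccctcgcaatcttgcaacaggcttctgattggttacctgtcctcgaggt

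The CHR match began 18 bases before the start in Cdc20, 29 in Ube2c and 23 in Top2a, and Cdk1 had matches at 71 and 15 bases. In Mcm5 the E2F matches began 153 and 149 bases before the start, and in Mcm6 110, 106 and 47 bases before it. The Cks2 stretch held no TTTGAA, nor did its whole window, but it held a CCAAT box. The windows of Ccnb1, Birc5, Bub1, Cenpe and Nusap1 held no TTTGAA either, and these mitosis genes were at least 1.5-fold higher in the SH045 kidney. Cks2 was thus not alone in lacking the word. TTTGAA occurred in 17 of 23 mitosis windows (73.9%), in 1 of 9 replication windows (Mcm2), and in 20.2% of all 27025 windows. The E2F words occurred in 4 of 9 replication windows (44.4%; Mcm3, Mcm5, Mcm6 and Mcm7), in 1 of 23 mitosis windows (Cdk1, printed in lower case above), and in 2.60% of all windows. A CCAAT box occurred in 21 of 23 mitosis windows and 8 of 9 replication windows, against 41.1% of all windows. A match is a word in a window and says nothing of whether a factor binds there.

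**Figure D1:**
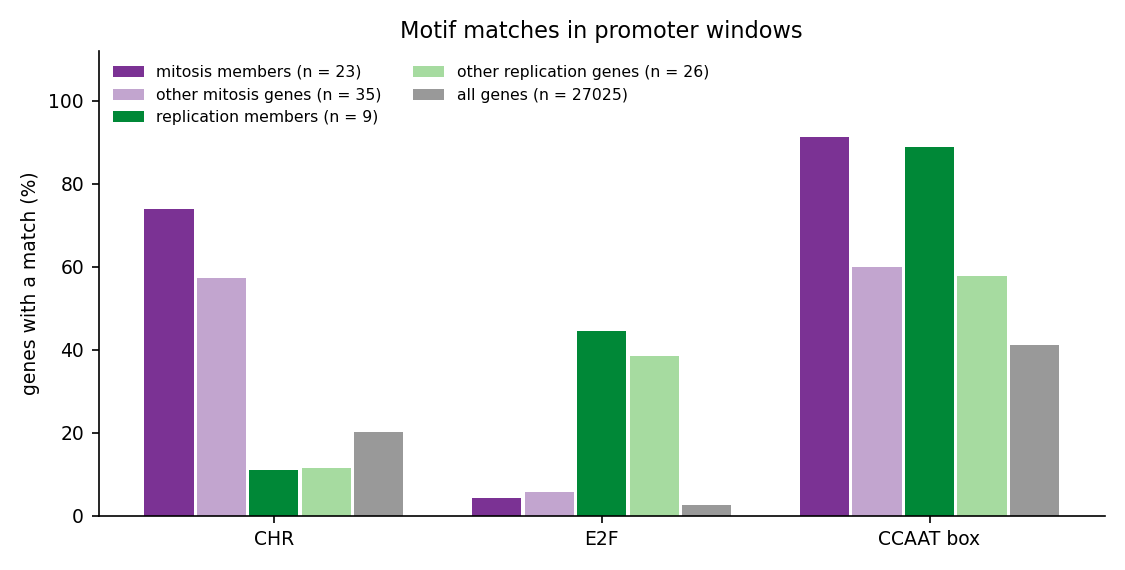
Share of genes (%, vertical axis) whose 300-base promoter window held a CHR, E2F or CCAAT word, for the mitosis and replication members, the other genes listed for each phase, and all genes. The CHR bar stands at 73.9% for mitosis members and the E2F bar at 44.4% for replication members, against 20.2% and 2.60% of all genes.

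Cell cycle genes of every phase stood at higher CPM in the SH045 kidney than in the section labelled Vehicle. Of all 44 members, 41 were at least 1.5-fold higher and none was at least 1.5-fold lower, against 60.4% higher and 13.6% lower among the 19311 genes with any UMI. The members not past 1.5-fold were Ccnd1, Tyms and Cks2. The median log2 ratio of the 44 was 1.54, against 0.40 for the genes with any UMI. Genes with few UMIs have ratios near 0. All 44 reached 1 CPM in at least 1 section, and the 14470 genes that did so had a median of 0.66. Each section was also split by position into 4 blocks, which describe the spread within a section and are not replicates. The SH045 blocks all lay above the Vehicle blocks for 40 of the 44 members, against 42.0% of the 19311 genes. Among genes at 10 CPM or more in at least 1 section this held for 26 of 28 members, against 56.3% of all genes. At least 10 CPM in 1 section was reached by 28 members, of which 25 were called higher, where the background was 53.2%. Of these 28, however, 17 passed through the SH045 kidney only, so the counts over the 28 are fixed in part by the filter. Relative to the median of all genes, 22 of the 28 were higher and 1, Cks2, was lower, where the backgrounds were 27.3% and 25.7%. With TMM factors the counts were also 22 higher and 1 lower, against 28.0% higher and 25.1% lower of all genes, and with TMM or median-of-ratios factors the folds of Ccnd1 and Tyms, given below by total UMIs, lay under 1. In the RNA of a whole section, more cycling cells and more RNA per cycling cell cannot be told apart.

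**Figure D2:**
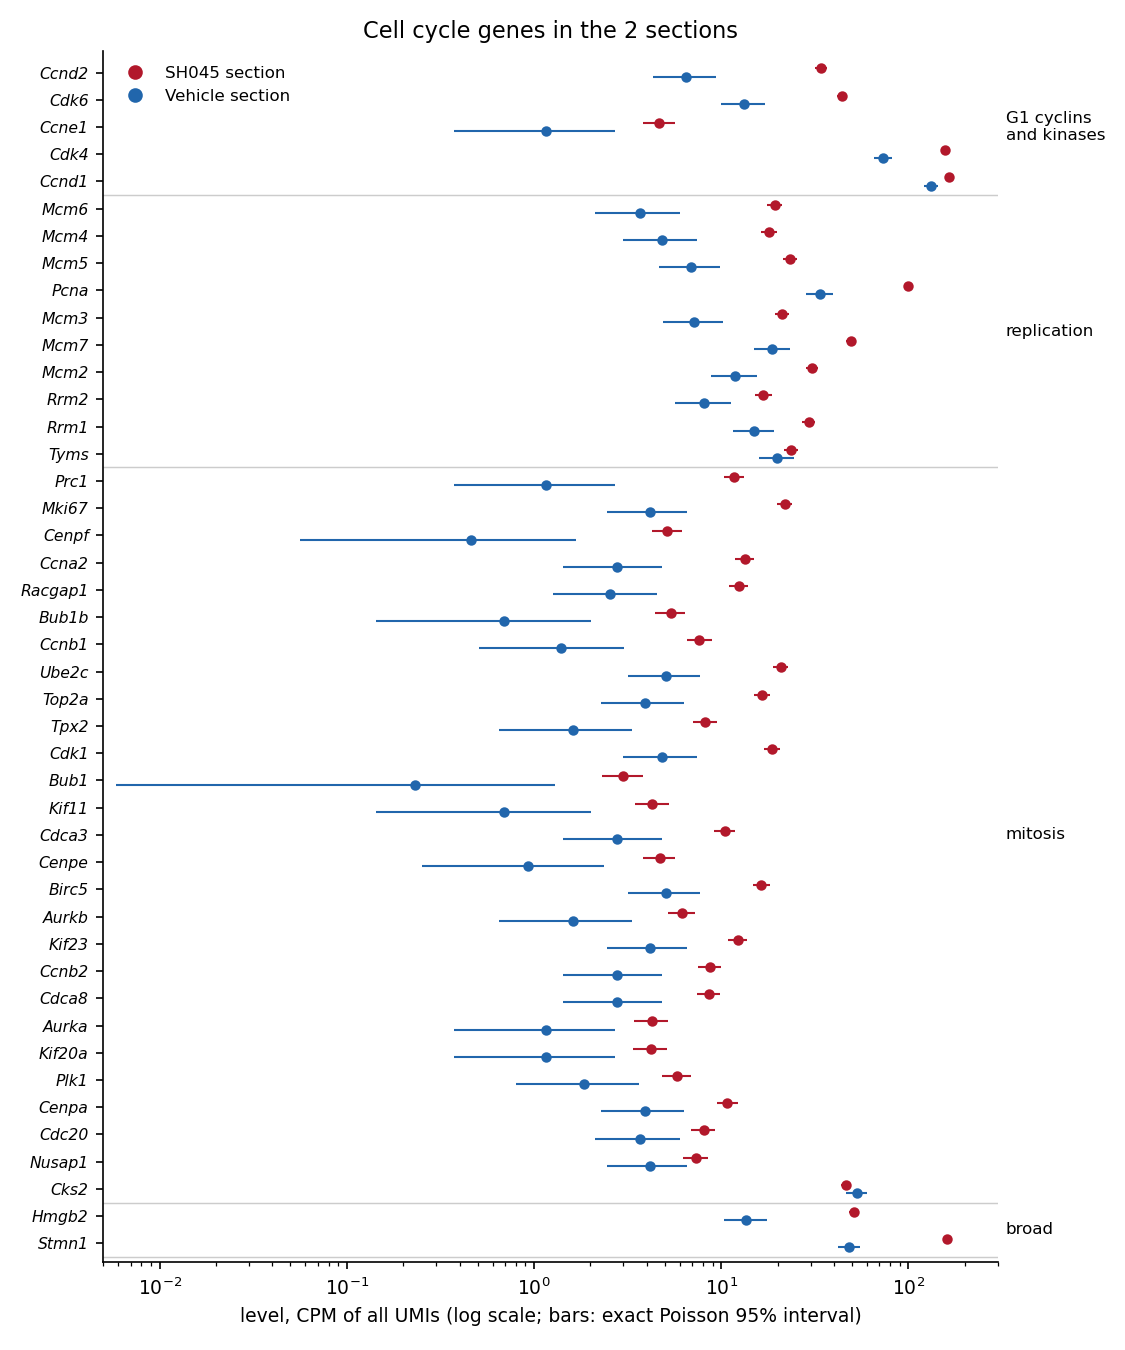
Level of each of the 44 genes in CPM (horizontal log axis) in the SH045 kidney (red) and the Vehicle kidney (blue), with exact Poisson 95% intervals and genes ordered by ratio within each phase. Red points lie right of blue points except for Cks2, at 46.3 CPM in the SH045 kidney and 52.9 CPM in the Vehicle kidney.

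Among the G1 genes, the D cyclins differed widely from each other. Ccnd1, encoding cyclin D1, the partner of CDK4 and CDK6, was at 165 CPM in the SH045 kidney and at 132 CPM in the Vehicle kidney, a fold of 1.26 (95% interval 1.15 to 1.37). Its blocks ran from 155 to 186 CPM in the SH045 kidney and from 122 to 149 CPM in the Vehicle kidney, so they did not overlap although the fold was small. Ccnd2, encoding cyclin D2, was at 34.0 CPM in the SH045 kidney and at 6.47 CPM in the Vehicle kidney, a fold of 5.26 (3.61 to 7.97). Cdk4 was at 157 against 73.0 CPM (2.15-fold) and Cdk6 was 3.34-fold higher (2.56 to 4.44). Ccne1, whose cyclin E1 activates CDK2 at the start of replication, rested on 104 UMIs in the SH045 kidney and 5 in the Vehicle kidney. The 5 genes summed to 405 CPM (397 to 414) in the SH045 kidney and 226 CPM (212 to 240) in the Vehicle kidney, a fold of 1.80 (1.68 to 1.92). Relative to the median of all genes, the log2 ratio of that sum was only 0.21. By that measure 2 of the 4 measured genes, Ccnd2 and Cdk6, were higher, where the background was 27.3%, and Cdk4 and Ccnd1 were within 1.5-fold.

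The replication genes were at least 1.5-fold higher in 9 of 10 cases, against 53.2% of all genes at 10 CPM or more. Relative to the median of all genes 7 of the 10 were higher, where the background was 27.3%, and Rrm1, Rrm2 and Tyms were within 1.5-fold. Of the 10, 5 reached 10 CPM in the SH045 kidney only. Their sum was 330 CPM (323 to 338) in the SH045 kidney against 130 CPM (119 to 141) in the Vehicle kidney, a fold of 2.54 (2.33 to 2.78). All 6 subunits of the MCM helicase were higher, with folds from 2.60 (Mcm2) to 5.21 (Mcm6). Mcm6 was at 19.3 CPM in the SH045 kidney, with blocks from 14.6 to 31.6 CPM, and at 3.70 CPM in the Vehicle kidney, where its blocks spanned 3.47 to 3.85 CPM. Mcm7 was the most captured subunit, at 49.1 CPM in the SH045 kidney and 18.7 CPM in the Vehicle kidney. Pcna, the sliding clamp of the replication fork, was at 98.9 CPM (94.9 to 103) in the SH045 kidney and at 33.7 CPM (28.5 to 39.7) in the Vehicle kidney, a fold of 2.93 (2.48 to 3.49). The nucleotide supply genes differed less. The ribonucleotide reductase genes Rrm1 and Rrm2 had folds of 1.95 and 2.08. Tyms, encoding thymidylate synthase, was at 23.7 CPM in the SH045 kidney and 19.9 CPM in the Vehicle kidney, a fold of 1.19 whose interval of 0.947 to 1.51 included 1. The highest Vehicle block, at 24.6 CPM, lay above the lowest SH045 block, at 20.9 CPM, so the blocks overlapped.

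Of the 27 mitosis genes, 26 were at least 1.5-fold higher in the SH045 kidney, against 60.4% of genes with any UMI, and Cks2 was the exception. Relative to the median of all genes Cdc20 and Nusap1 were within 1.5-fold and Cks2 was lower. Of the 12 at 10 CPM or more, 11 were higher by that measure, where the background was 27.3%, but 11 of the 12 passed through the SH045 kidney only. Mki67, which encodes the Ki-67 protein of dividing cells (ENSMUSG00000031004, chromosome 7, 135689784 to 135716450 in mm10), was at 21.8 CPM (489 UMIs) in the SH045 kidney and 4.16 CPM (18 UMIs) in the Vehicle kidney, a fold of 5.25 (3.29 to 8.94). Its blocks held 15.7, 17.1, 24.7 and 33.0 CPM in the SH045 kidney, against 5.67, 3.77, 2.78 and 4.62 CPM in the Vehicle kidney. Every SH045 block was thus above every Vehicle block. Top2a, the topoisomerase that untangles sister chromatids, was at 16.5 against 3.93 CPM (4.21-fold). Together these chromosome proteins were 4.74-fold higher.

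The mitotic engine itself was higher in each cyclin and in Cdk1, but not in Cks2. With Cks2 counted, these 5 genes summed to a fold of 1.46 (1.29 to 1.66). Relative to the median of all genes, the log2 ratio of that sum was -0.09. Cdk1 was at 18.7 CPM in the SH045 kidney and 4.85 CPM in the Vehicle kidney, a fold of 3.86. Ccna2 (cyclin A2) was at 13.3 against 2.77 CPM, Ccnb1 (cyclin B1) at 7.64 against 1.39 CPM, and Ccnb2 (cyclin B2) at 8.67 against 2.77 CPM. Genes of mitotic exit and degradation (Ube2c, Cdc20 and Cdca3) were 3.40-fold higher in sum. Ube2c, the ubiquitin-conjugating enzyme of the anaphase-promoting complex, was the highest of them, at 20.8 against 5.08 CPM. Cdc20, which activates that complex, was at 8.04 against 3.70 CPM, and Cdca3, an adaptor for degradation at mitotic entry, at 10.4 against 2.77 CPM.

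The mitotic kinases and the chromosomal passenger complex (Aurka, Aurkb, Plk1, Bub1, Bub1b, Birc5 and Cdca8) summed to a fold of 3.69. Birc5, encoding survivin, was the highest of them, at 16.3 CPM in the SH045 kidney and 5.08 CPM in the Vehicle kidney. The kinetochore genes Cenpa, Cenpe and Cenpf summed to a fold of 3.87. The spindle and midzone genes (Kif11, Kif20a, Kif23, Tpx2, Nusap1, Prc1 and Racgap1) summed to a fold of 3.90. Prc1, which bundles the microtubules of the midzone, had 261 UMIs in the SH045 kidney and 5 in the Vehicle kidney, a fold of 10.1 with a wide interval of 4.27 to 31.3. Nusap1, a spindle protein, had the smallest fold of the 26, at 1.76 (1.08 to 3.05), and its blocks overlapped between the sections, as did those of Aurka. Bub1, Bub1b, Cenpf and Kif11 had at most 3 UMIs in the Vehicle kidney, so their folds are poorly fixed. Bub1 had 67 UMIs in the SH045 kidney and 1 in the Vehicle kidney.

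Cks2 encodes a small protein that binds CDK1 and helps it act on its substrates (ENSMUSG00000062248, chromosome 13, 51645232 to 51650662 in mm10). It was the most abundant mitosis gene in both sections and the one that differed least. It was at 46.3 CPM (43.5 to 49.2) in the SH045 kidney and 52.9 CPM (46.3 to 60.2) in the Vehicle kidney, a fold of 0.875 (0.758 to 1.01). The SH045 blocks ran from 42.2 to 50.5 CPM and the Vehicle blocks from 43.4 to 57.6 CPM, so they overlapped. Cks2 supplied 15.3% of the mitosis UMIs in the SH045 kidney and 44.6% in the Vehicle kidney. With it, the 27 genes summed to 303 CPM (296 to 310) in the SH045 kidney and 119 CPM (109 to 129) in the Vehicle kidney, a fold of 2.55 (2.33 to 2.80). Without it, the other 26 summed to 256 CPM (250 to 263) against 65.6 CPM (58.2 to 73.7), a fold of 3.91 (3.47 to 4.42).

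Stmn1, encoding the microtubule-destabilising protein stathmin, was at 160 CPM in the SH045 kidney and 48.3 CPM in the Vehicle kidney, a fold of 3.31 (2.88 to 3.83). Hmgb2, a chromatin protein abundant in dividing cells, stood at 51.2 CPM in the SH045 kidney and 13.6 CPM in the Vehicle kidney, or 3.75-fold higher (2.89 to 4.96). Neither gene had overlapping blocks.

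The share of mitosis among replication and mitosis UMIs was close in both sections with Cks2 counted, and differed without it and after thinning. Mitosis genes took 47.8% (exact binomial interval 47.0 to 48.7%) of the replication and mitosis UMIs in the SH045 kidney and 47.7% (44.7 to 50.8%) in the Vehicle kidney. Leaving out Cks2, a choice made after its values were seen, the share was 43.7% (42.9 to 44.6%) in the SH045 kidney and 33.6% (30.4 to 36.9%) in the Vehicle kidney. The genes differ in how well they are captured, so a share is read only against the same share elsewhere. Within the SH045 kidney the share without Cks2 ran from 40.4 to 48.4% over the blocks, and in the Vehicle kidney from 30.5 to 36.0%, with no overlap. With spots thinned to 2500 UMIs and Cks2 counted, it was 49.0% in the SH045 kidney and 43.2% in the Vehicle kidney. With the other genes listed for the same phases, 37 for replication and 42 for mitosis, the mitosis share was 42.9% in the SH045 kidney and 42.6% in the Vehicle kidney. Pttg1, encoding securin, the guard of sister chromatid cohesion, was the most abundant of those mitosis genes and, like Cks2, was not higher in the SH045 kidney, at 58.5 CPM against 78.3 CPM in the Vehicle kidney (0.747-fold, 0.662 to 0.844).

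Those other genes of the 2 phases were higher in the SH045 kidney by smaller sums. The other replication genes summed to 531 CPM in the SH045 kidney and 282 CPM in the Vehicle kidney (1.89-fold), with 31 of 37 at least 1.5-fold higher and 1 lower, against the 60.4% higher and 13.6% lower of all genes. Relative to the median of all genes, 6 of the 17 measured were higher and 1 was lower, where the backgrounds were 27.3% and 25.7%. Rfc2, a clamp loader subunit, was at 54.8 against 40.2 CPM, Dut, which removes dUTP, at 46.7 against 27.5 CPM, and Slbp, the binding protein of histone mRNA, at 45.9 against 21.0 CPM. The other mitosis genes summed to 400 CPM in the SH045 kidney and 209 CPM in the Vehicle kidney (1.91-fold), with 35 of 42 higher and 2 lower against the same background. Relative to the median of all genes, 6 of the 11 measured were higher and 2 were lower, where the backgrounds were again 27.3% and 25.7%. Hjurp, the chaperone that loads the centromeric histone, was at 44.5 against 15.7 CPM, and Smc4, a condensin subunit, at 26.4 against 7.39 CPM.

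Genes that hold back the cycle differed in both directions. Cdkn1a, encoding the CDK inhibitor p21, was at 61.6 CPM in the SH045 kidney and 5.31 CPM in the Vehicle kidney, a fold of 11.6 (7.69 to 18.3). Cdkn1b, encoding the inhibitor p27, was at 43.6 against 12.5 CPM (3.49-fold). Cdkn2b, an inhibitor of CDK4 and CDK6, had 183 UMIs in the SH045 kidney and 3 in the Vehicle kidney. Cdkn1c, encoding p57, which podocytes express, ran the other way, at 10.7 against 19.9 CPM (0.539-fold, 0.420 to 0.698). Cdkn2c at 1.48-fold and Cdkn2d at 1.18-fold were within 1.5-fold and lay under 1 with those other factors, as did Rfc2 and Ccnd3, and Cdkn2a had 6 UMIs in the SH045 kidney and 1 in the Vehicle kidney. Of the 18 RB and E2F genes 14 were at least 1.5-fold higher and none lower, where the background was 60.4% higher. Relative to the median of all genes, 2 of the 11 measured were higher, a share below the background of 27.3%. Among the 14 were Tfdp1, the E2F partner, at 46.7 against 12.9 CPM, E2f4 at 54.0 against 26.3 CPM and Rbbp4 at 135 against 66.5 CPM. Among 9 other cyclins and CDKs 6 were higher, a share near the background of 60.4%. Relative to the median of all genes, 2 of the 7 measured were higher and 1 lower, near the backgrounds of 27.3% and 25.7%. Ccng2 was 4.42-fold higher, and Ccng1, a p53 target, was lower at 107 against 164 CPM. Ccnd3 was at 118 against 94.3 CPM.

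Markers of several other cell types also differed between the sections, while other marker lists were mixed. Fibroblast markers were higher in 8 of 8 cases and summed to 2918 CPM in the SH045 kidney (blocks 1690 to 5530) and 106 CPM in the Vehicle kidney (blocks 77.3 to 126). Lum, 1 of the 8, had no UMI in the Vehicle kidney. Macrophage markers were higher in 10 of 10 cases, at 2049 CPM (1829 to 2269) against 238 CPM (222 to 262), none of them at 0. Early proximal tubule markers (first and second segments) were lower in 12 of 12 cases, at 2123 CPM (867 to 2753) in the SH045 kidney against 13465 CPM (13116 to 14327) in the Vehicle kidney. Distal convoluted and connecting tubule markers were lower in 7 of 8 cases, at 620 CPM (227 to 830) against 23033 CPM (18211 to 27750). Injured tubule markers were higher in 12 of 12 cases, at 27043 CPM (24987 to 28815) against 1555 CPM (1397 to 1703), and Krt20, 1 of the 12, had no UMI in the Vehicle kidney. Smooth muscle markers summed to 673 CPM in the SH045 kidney and 75.8 CPM in the Vehicle kidney, and B and plasma cell markers to 1525 CPM in the SH045 kidney and 182 CPM in the Vehicle kidney. T and NK cell markers were scarce, at 26.9 CPM (21.3 to 30.4) against 6.70 CPM (3.77 to 8.33), and 3 of their 9 had no UMI in the Vehicle kidney. Endothelial markers were higher in 3 of 8 cases and lower in 1, and thick ascending limb markers higher in 2 of 6 and lower in 2. Straight proximal tubule markers were higher in 4 of 8 cases and lower in 2. Neutrophil markers summed to a fold of 1.22 (0.97 to 1.54). Among all genes at 10 CPM or more, 53.2% were higher and 12.0% lower. The part of these differences in the levels of the cell cycle genes was not tested.

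To compare single spots at one depth, each was thinned by random draws down to 2500 UMIs, which dropped 2 SH045 and 115 Vehicle spots that were shallower. A mitosis UMI was then seen in 51.0% (47.5 to 54.6%) of 788 SH045 spots and 24.1% (20.6 to 27.8%) of 561 Vehicle spots, and before thinning in 98.4% and 46.9%. Without Cks2 the thinned shares were 46.1% in the SH045 kidney and 13.9% in the Vehicle kidney. A replication UMI was seen in 56.3% of SH045 spots and 29.9% of Vehicle spots. For single genes, Mki67 was seen in 6.47% of SH045 spots and 1.07% of Vehicle spots, and Cks2 in 10.0% and 11.2%. A spot holds several cells, so none of these is a share of cycling cells.

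Among the members, mitosis UMIs were more unevenly spread over the SH045 spots than replication UMIs. With spots thinned to 10000 UMIs, which 768 SH045 spots reached, the mean spot held 3.23 mitosis UMIs with a variance of 2.19 times the mean and a highest spot of 17. The mean spot held 3.53 replication UMIs with a variance of 1.42 times the mean and a highest spot of 14. A variance equal to the mean is what counting alone gives. For the other genes listed for the same phases the ratios were closer, at 1.59 for mitosis and 1.48 for replication. At 2500 UMIs the ratio for the mitosis members was 1.38 in the SH045 kidney and 1.03 in the Vehicle kidney. Unevenness was not detectable at the depth of the Vehicle spots, whose mean was 0.273 mitosis UMIs.

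**Figure D3:**
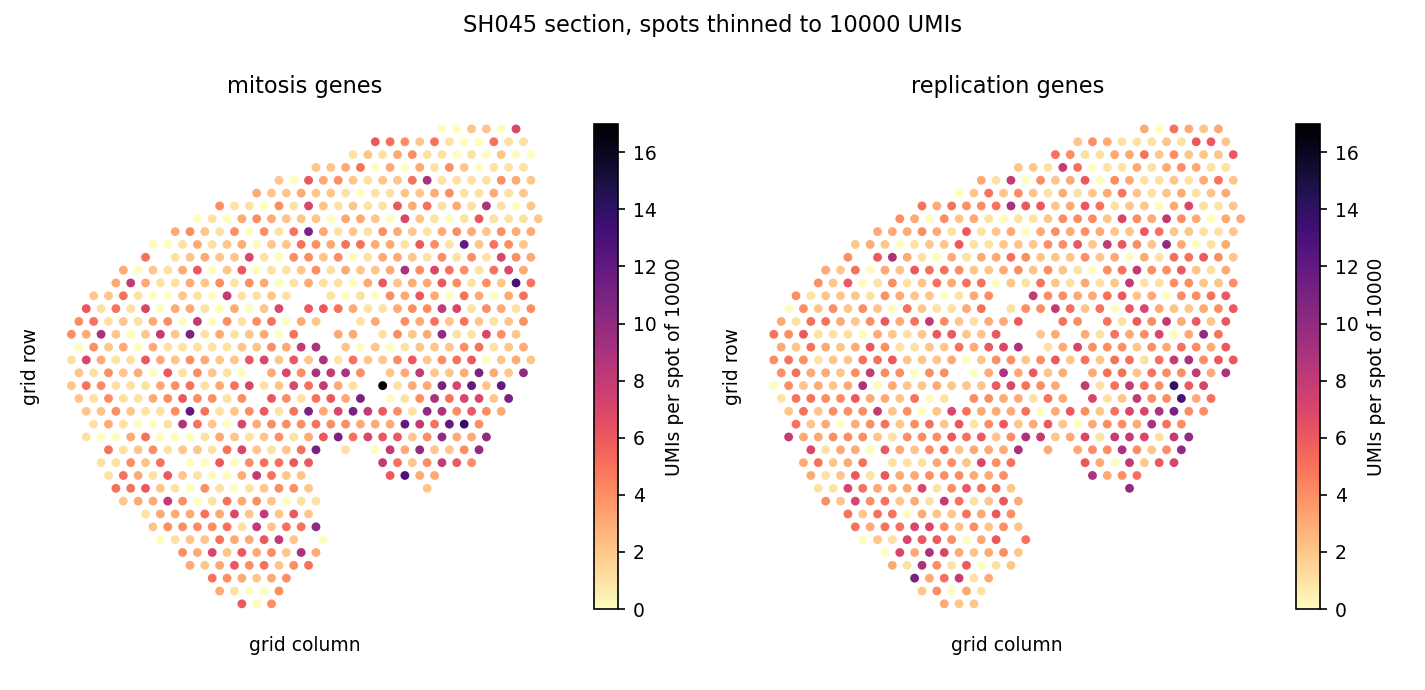
Mitosis (left) and replication (right) UMIs per spot of the SH045 kidney after thinning to 10000 UMIs, drawn on the slide grid (768 spots, axes in grid rows and columns, 1 colour scale). Mitosis reaches 17 UMIs in a spot around a mean of 3.23, and replication 14 around 3.53, with dark spots of both in the lower right.

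Across spots, correlations were low both between the phases and among the replication genes, as a description of spots that share a library. Spearman's rho between replication and mitosis UMIs was 0.06 in the SH045 kidney and 0.04 in the Vehicle kidney at 2500 UMIs, and 0.20 over the 768 SH045 spots at 10000 UMIs (Pearson 0.26). Without thinning it was 0.39 in the SH045 kidney and 0.01 in the Vehicle kidney. At 10000 UMIs the mitosis genes followed the other listed mitosis genes more closely (rho 0.38) than they followed the replication genes or the G1 genes (0.04). The replication genes followed the other listed replication genes at 0.27. That was close to 0.24 between replication and mitosis without Cks2, and to 0.25 between the other lists of the 2 phases. Counting error at so few UMIs per spot lowers every rho, so low values do not show the phases to be unlinked. The sum of the other mitosis members had a rho of 0.23 with Mki67, 0.23 with Stmn1 and 0.17 with Hmgb2, and of 0.01 with Cks2 and 0.06 with Pcna. Between neighbouring SH045 spots at 10000 UMIs, rho was 0.26 for mitosis and 0.20 for replication. At 2500 UMIs it was 0.17 and 0.06 in the SH045 kidney, and -0.01 and 0.03 in the Vehicle kidney. In 4 zones of grid steps from the edge of the SH045 tissue inward, mitosis was at 335, 332, 315 and 305 CPM at 10000 UMIs, and at 308, 352, 370 and 303 CPM at 2500 UMIs, so no order held at both depths.

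Among 3933 genes outside the cell cycle lists, over the 768 SH045 spots, the 10 of highest rho with the mitosis sum were Col3a1 (0.31), Lcn2, Col1a2, Col1a1, Aldh1a2, Tmsb4x, Rpl13a, Tuba1b, Col6a3 and Thy1 (0.23). Summed fibroblast markers had a rho of 0.35 with the 26 mitosis genes other than Cks2 and of 0.25 with replication. Early proximal tubule markers had a rho of -0.35 with the 26 mitosis genes and of -0.28 with replication. Endothelial markers had a rho of 0.22 with the 26 mitosis genes and of 0.23 with replication. Injured tubule markers had a rho of 0.05 with the 26 genes, and macrophage markers 0.07. For Cks2 the same markers gave -0.04 (fibroblast) and 0.08 (proximal tubule). All of these values are low.

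Regions of each section were found by clustering spots without any cell cycle gene, and are called by their leading genes. In the SH045 kidney mitosis was highest in region 6 (76 spots), led by Agtr2, Col6a4, Thbs4, Cpxm2 and Mmp7, where the 26 genes without Cks2 summed to 494 CPM (459 to 532). It was lowest in region 7 (56 spots), led by the proximal tubule genes Acmsd, Slc22a8, Cyp2d26, Dnase1 and Miox, at 117 CPM (103 to 132). Of the 27 mitosis genes, 22 were highest in region 6 and 19 were lowest in region 7. The share of all genes highest or lowest in a region was not computed, here or for the counts by region below. Ube2c was at 44.6 CPM in region 6 and 9.23 CPM in region 7. Mki67 was at 41.2 CPM in region 6 and 7.03 CPM in region 7. Prc1 was at 26.1 CPM in region 6 and 3.96 CPM in region 7.

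The replication sum was highest in region 4 (83 spots), led by Tnn, Igfbp2, Cck and Megf6, at 517 CPM (485 to 551), against 457 CPM (423 to 494) in region 6 and 195 CPM (177 to 214) in region 7. Of the 10 replication genes, 6 were highest in region 4 and 4 in region 6. Mcm6 showed it most plainly, at 46.1 CPM (36.8 to 57.0) in region 4 and 18.5 CPM in region 6. Pcna was level between them, at 129 CPM in region 4 and 127 CPM in region 6. Of the 5 G1 genes, 3 were highest in region 4, and Ccnd1 was at 262 CPM (239 to 287) there, against 128 CPM (111 to 148) in region 6. Without Cks2, mitosis was 51.9% of the replication and mitosis UMIs in region 6 (49.3 to 54.6%) and 43.0% in region 4. The other regions lay at 48.9% (region 9, led by the podocyte gene Nphs1), 48.4% (region 5, led by Krt14), 44.9% (region 3), 41.4% (region 2), 41.1% (region 1), 39.6% (region 8) and 37.5% (region 7, 33.9 to 41.1%).

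The other listed mitosis genes were level between these regions, at 591 CPM (552 to 631) in region 6 and 585 CPM (551 to 621) in region 4. With coarser clustering (resolution 0.3) the region of highest mitosis held 158 spots, at 484 CPM for all 27 genes, against 552 CPM in region 6.

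Marker levels of several cell types differed between these regions. Fibroblast markers summed to 7207 CPM in region 6, 4284 CPM in region 4 and 1166 CPM in region 7, and all 9 regions held some. They were above region 4 in regions 9 (5286 CPM) and 5 (4501 CPM), where replication summed to only 309 and 327 CPM. Thick ascending limb markers were at 7442 CPM in region 4, 3267 CPM in region 6 and 2339 CPM in region 7, and highest in region 3. Injured tubule markers were at 27748 CPM in region 6, 23825 CPM in region 4 and 12820 CPM in region 7, and highest in region 1. Early proximal tubule markers summed to 8029 CPM in region 7, against 393 CPM in region 6 and 377 CPM in region 4. The median spot held 18961.5 UMIs in region 6, 22432 in region 4 and 40315.5 in region 7, so the regions of highest level were the shallower ones. The part of depth and of cell makeup in the regional levels was not tested.

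**Figure D4:**
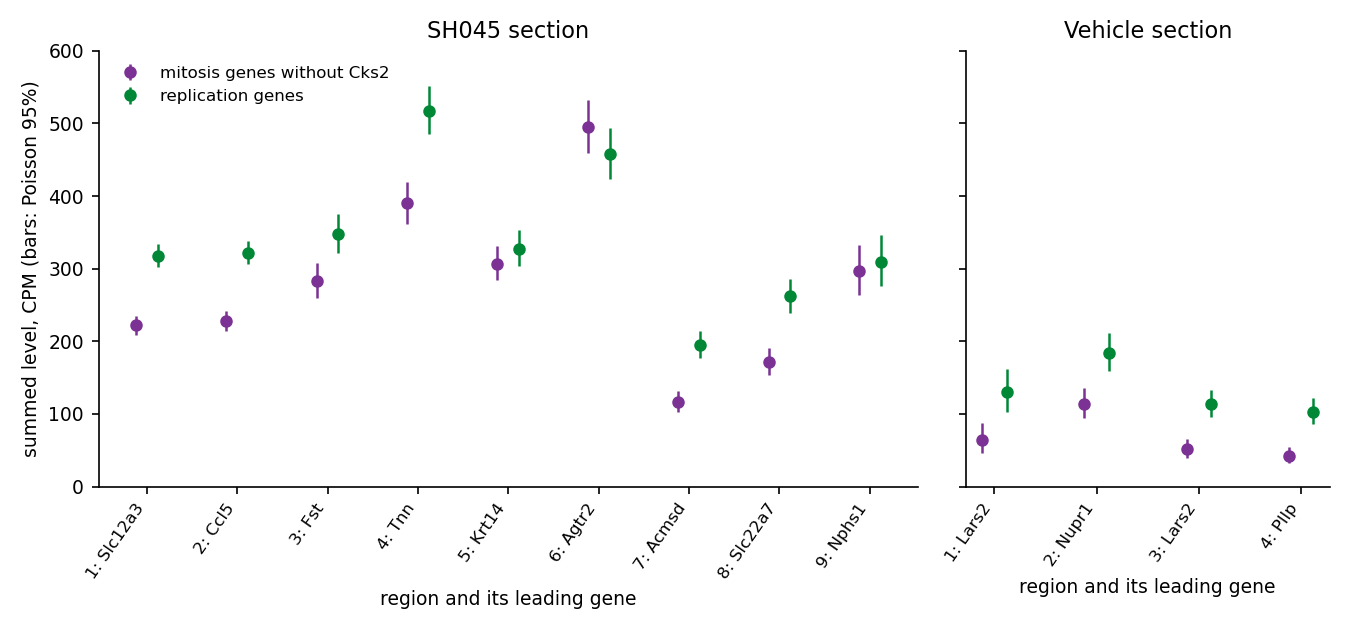
Summed CPM of the 26 mitosis genes without Cks2 (purple) and of the 10 replication genes (green) in each region, named by its leading gene, with Poisson 95% intervals, for the SH045 kidney (left) and the Vehicle kidney (right). Purple exceeds green in SH045 region 6 only, at 494 against 457 CPM, and every region of the Vehicle kidney lies below 200 CPM.

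Cks2 did not follow the other mitosis genes over the regions of the SH045 kidney. It was highest in region 7, at 80.9 CPM (69.6 to 93.5), and next in region 8 (55 spots, led by Slc22a7 and Serpina1d), at 67.4 CPM (56.1 to 80.3), the regions where the other 26 genes were lowest. It stood at 57.0 CPM in region 6, where those genes were highest, and at 34.9 to 43.3 CPM in the remaining 6 regions.

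The Vehicle kidney split into 4 regions. Region 2 (183 spots), led by Nupr1, Klk1, Tmem52, H2-Q6 and Plat, had the highest sum of the 26 mitosis genes, at 113 CPM (94.0 to 136), against 42.5 to 64.2 CPM in the other 3. It also had the highest replication sum, at 184 CPM against 103 to 130 CPM. There 14 of 27 mitosis and 8 of 10 replication genes were highest, but the share of all genes highest there was not computed. Many of these maxima rest on few UMIs, as 4 mitosis genes had at most 3 in the whole section. Cks2 was lowest in that region, at 35.9 CPM (25.4 to 49.3), and was at 52.9 to 62.6 CPM elsewhere, with intervals that overlapped it in regions 1 and 3. Early proximal tubule markers were lowest in region 2 too, at 8478 CPM against 13162 to 17636 CPM in the other 3. Distal convoluted and connecting tubule markers were highest there, at 60715 CPM against 5746 to 14817 CPM. Injured tubule markers stood at 3235 CPM against 643 to 1300 CPM, and fibroblast markers at 213 CPM against 59.4 to 74.3 CPM. The part of cell makeup in these levels was not tested.

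**Figure D5:**
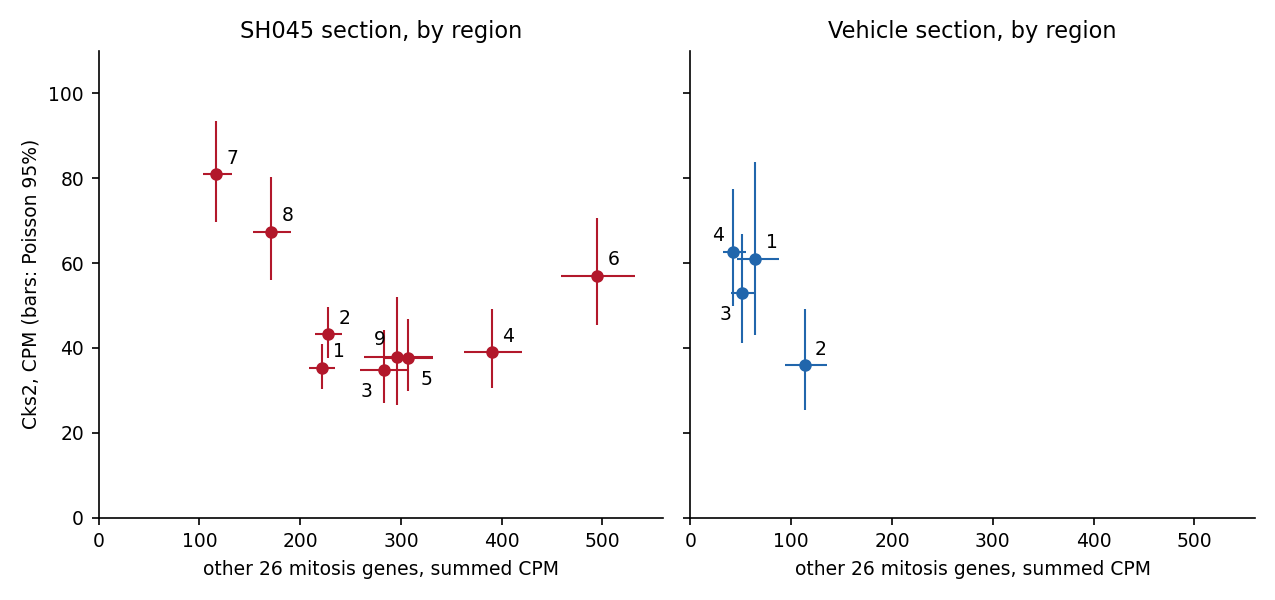
Cks2 level (vertical axis, CPM) against the summed CPM of the other 26 mitosis genes (horizontal axis) for each numbered region of the SH045 kidney (left) and the Vehicle kidney (right), with Poisson 95% intervals. Regions 7 and 8 of the SH045 kidney combine the 2 lowest sums with the 2 highest Cks2 levels, 80.9 and 67.4 CPM, and region 2 of the Vehicle kidney combines the highest sum, 113 CPM, with the lowest Cks2 level, 35.9 CPM.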

How the data were processed

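The authors deposited, for each section, a table of UMI counts per gene and spot that was not normalized, made with Space Ranger 2.0.1 per the file headers and with build mm10 per the submitters' processing notes. How reads were aligned, and how reads shared by near-identical genes were treated, is not given in these sources. The tissue flag of the deposited positions marked 790 spots of the SH045 kidney, all of those in its matrix, and 1210 of the Vehicle kidney, of which 570 were among the 676 in the matrix. All matrix spots were therefore used, and flagged spots were an alternative.

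Groups came from the labelled treatment. UMIs were summed per section and expressed as CPM with exact Poisson 95% intervals. Folds are ratios of CPM with exact conditional binomial intervals, and shares have Clopper-Pearson intervals. The floor of 3 counts was 0.134 CPM in the SH045 kidney and 0.693 CPM in the Vehicle kidney. A gene counted as measured at 10 CPM or more in either section, and calls were made at 1.5-fold. Capture takes place at the 3′ end, so CPM was not scaled by length, and levels of different genes were not ranked as transcript abundance beyond captured UMIs. Regions were clustered per section with scanpy 1.11.5 and leidenalg 0.10.2 (2000 variable genes without any cell cycle gene, 20 components, 15 neighbours, resolution 0.6). Scaling was repeated with edgeR 4.0.16 (TMM) and median-of-ratios factors. Gene and promoter positions are those of RefSeq, GRCm38.p6.

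The members and the gene lists were chosen with earlier results of these data known. The text names all members, the 3 genes of highest level in the SH045 kidney of each other cell cycle list, every CDK inhibitor, the 10 genes most correlated with mitosis and the 5 leading genes per region, and any marker or exception needed beside a result. Some genes that this rule selects are not reported here.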

Additional observations from a re-analysis of the deposited data

How the results depend on the processing

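No paired analysis was possible because each group has 1 section and no result comes from a test. No recomputed median log2 ratio of the mitosis, replication and G1 lists changed sign under any setting. No recomputed summed ratio of the mitosis or replication genes fell below 1. Mitosis shares and counts of members have no sign to change, so they could only move. The shares of the 2 sections went from 47.8% and 47.7% to 43.7% and 33.6% without Cks2. Other lists were not rescaled, and relative to the median of all genes some of their summaries changed sign. The median log2 ratio of the CDK inhibitors went from 0.53 to -0.11. The log2 ratio of the sum went from 0.16 to -0.47 for the other cyclins and CDKs. For the mitotic cyclins with Cdk1 and Cks2 it went from 0.54 to -0.09. With TMM and median-of-ratios factors the folds of the single genes Ccnd1, Tyms, Cdkn2c, Cdkn2d, Rfc2 and Ccnd3 lay under 1. The median log2 ratio of all measured genes moved to 0.04 with TMM and 0.004 with median-of-ratios factors. The median log2 ratios of the lists moved with it, to 1.25 and 1.21 for mitosis, 0.81 and 0.77 for replication, and 0.78 and 0.74 for G1 genes, where the scaling by total UMIs had given 1.79, 1.39 and 1.38. The mitosis medians cover the 12 of 27 genes at 10 CPM or more, and 11 of the 12 passed through the SH045 kidney only. The summed ratios became 1.67 and 1.62 for mitosis and 1.66 and 1.61 for replication. Of 28 measured members, 22 were then higher and 1 lower under each, with 28.0% higher and 25.1% lower of all genes under TMM and 26.6% and 26.4% under median-of-ratios factors.

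With at least 1 CPM, or with no filter, 41 of 44 members were called higher, against 55.9% and 60.4% of all genes. The mitosis median was then 1.60. With at least 10 CPM in the Vehicle kidney, a setting added after the data were seen, 8 of 11 were, against 42.0% of all genes. A pseudocount of 0.1 CPM gave a mitosis median of 1.97, and flagged Vehicle spots alone gave a G1 median of 1.26. The other listed genes gave summed ratios of 1.91 for mitosis and 1.89 for replication, and mitosis shares of 42.9% in the SH045 kidney and 42.6% in the Vehicle kidney. Without Pcna the shares were 56.7% and 55.2%, and with thinned spots 49.0% and 43.2%. Without Cks2, also added later, they were 43.7% and 33.6%, the summed ratio was 3.91, and thinned spots with a mitosis UMI were 46.1% and 13.9%. Unthinned, those spots were 98.4% and 46.9%. The correlation of the phases in the SH045 kidney was 0.39 unthinned and 0.20 at 10000 UMIs. The highest regional mitosis level was 484 CPM in the SH045 kidney at resolution 0.3 and 215 CPM in the Vehicle kidney at resolution 1.0. The other 33 recomputed values stayed within the counting interval of the value reported or, for counts of genes, within 1.5 times of it. Depth limits the Vehicle kidney, where 4 mitosis genes had at most 3 UMIs.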
